A study of Mus musculus with 22 samples.

Results

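Described here are 10 genes for transcription factors and transcriptional regulators of the conventional dendritic cell (cDC) lineage: Zbtb46, Batf, Batf3, Id2, Bcl6, Nfil3, Zeb2, Relb, Spi1 and Tcf4. They were chosen by name, as 10 of the 34047 genes of a deposited count table, together with 197 of 177956 windows of open chromatin in the deposited ATAC-seq table. These windows lie in 67 of 74217 peaks and have one of the 10 genes as their closest gene within 50000 bases. The study sorted splenic and mesenteric lymph node (MLN) dendritic cells into cDC1, T-bet- cDC2 and T-bet+ cDC2 and measured RNA in 16 libraries, and open chromatin in 6 libraries of splenic cells (2 per subset, 50000 cells each). In the spleen each subset had 3 RNA libraries, and in the MLN cDC1 had 3 and each cDC2 subset had 2. All groups came from untreated Tbx21RFP-cre mice of both sexes, 6 to 10 weeks old, so that every library, cDC1 included, carries the reporter knock-in at Tbx21, the gene for T-bet. Cells were gated as CD11c+ MHCII+ cells without lineage markers, CD64 or Ly6C, cDC1 as XCR1+ CD11b- and cDC2 as CD11b+ XCR1-, and cDC2 were then split by the RFP reporter, which defines T-bet+ and T-bet- here. Each RNA library pooled a pair of mice, and p-values below measure the spread between these pools.

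Conventional dendritic cells are antigen-presenting cells that capture material in tissues and prime T cells. Of their 2 lineages, cDC1 are known for cross-presentation to CD8+ T cells, and cDC2 mainly prime CD4+ T cells. Their fate is set by a small network of factors: Zbtb46 marks committed cDC precursors, the ETS factor PU.1 (Spi1) opens the myeloid program. cDC1 need Irf8, Batf3, Id2 and Nfil3, whereas cDC2 depend more on Irf4, Relb and Zeb2 at different steps. Id proteins and E proteins such as Tcf4 oppose each other, since an Id protein holds an E protein off DNA, and Tcf4 is the factor that specifies plasmacytoid dendritic cells (pDCs).

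Total counts ran from 20993220 to 29006549 in the RNA libraries and from 7270164 to 10081555 in the ATAC windows. As a check of the sort, Tbx21 stood at 23.1, 24.9 and 17.2 CPM (counts scaled to a common library size) in splenic T-bet+ cDC2 and at 2.38 CPM or less in the other splenic libraries. Among MLN libraries Tbx21 stood at 7.19 and 2.93 CPM in T-bet+ cDC2, 0.538 and 0.918 CPM in T-bet- cDC2 and 0.243, 0.39 and 0.364 CPM in cDC1. T-bet+ over T-bet- cDC2 was there not called by edgeR (adjusted p = 0.27) and called by DESeq2 (0.014). As a second check, 8 cDC1 markers summed to 4456 to 7874 CPM in splenic cDC1 against at most 629 CPM in splenic cDC2. The splenic libraries also split by base composition in a way the subsets do not explain. Over 7618 genes, each library's deviation from the mean of all libraries was correlated with the GC content of the most GC-rich 100 bases of the transcript, and the 16 libraries were divided at a Spearman rho of 0.1. Splenic cDC1 replicates 1 and 2, T-bet- replicate 3 and all 3 T-bet+ replicates lay above it (0.206 to 0.338). By contrast, cDC1 replicate 3, T-bet- replicates 1 and 2 and all MLN libraries lay below it (-0.404 to 0.044). These are called higher-GC and lower-GC libraries here. The split was made from the data and not from the labels, and its part in any result was not tested beyond the fits that carry it as a term. In bulk libraries, fewer cells that express a gene and less RNA per cell cannot be told apart.

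**Figure D1:**
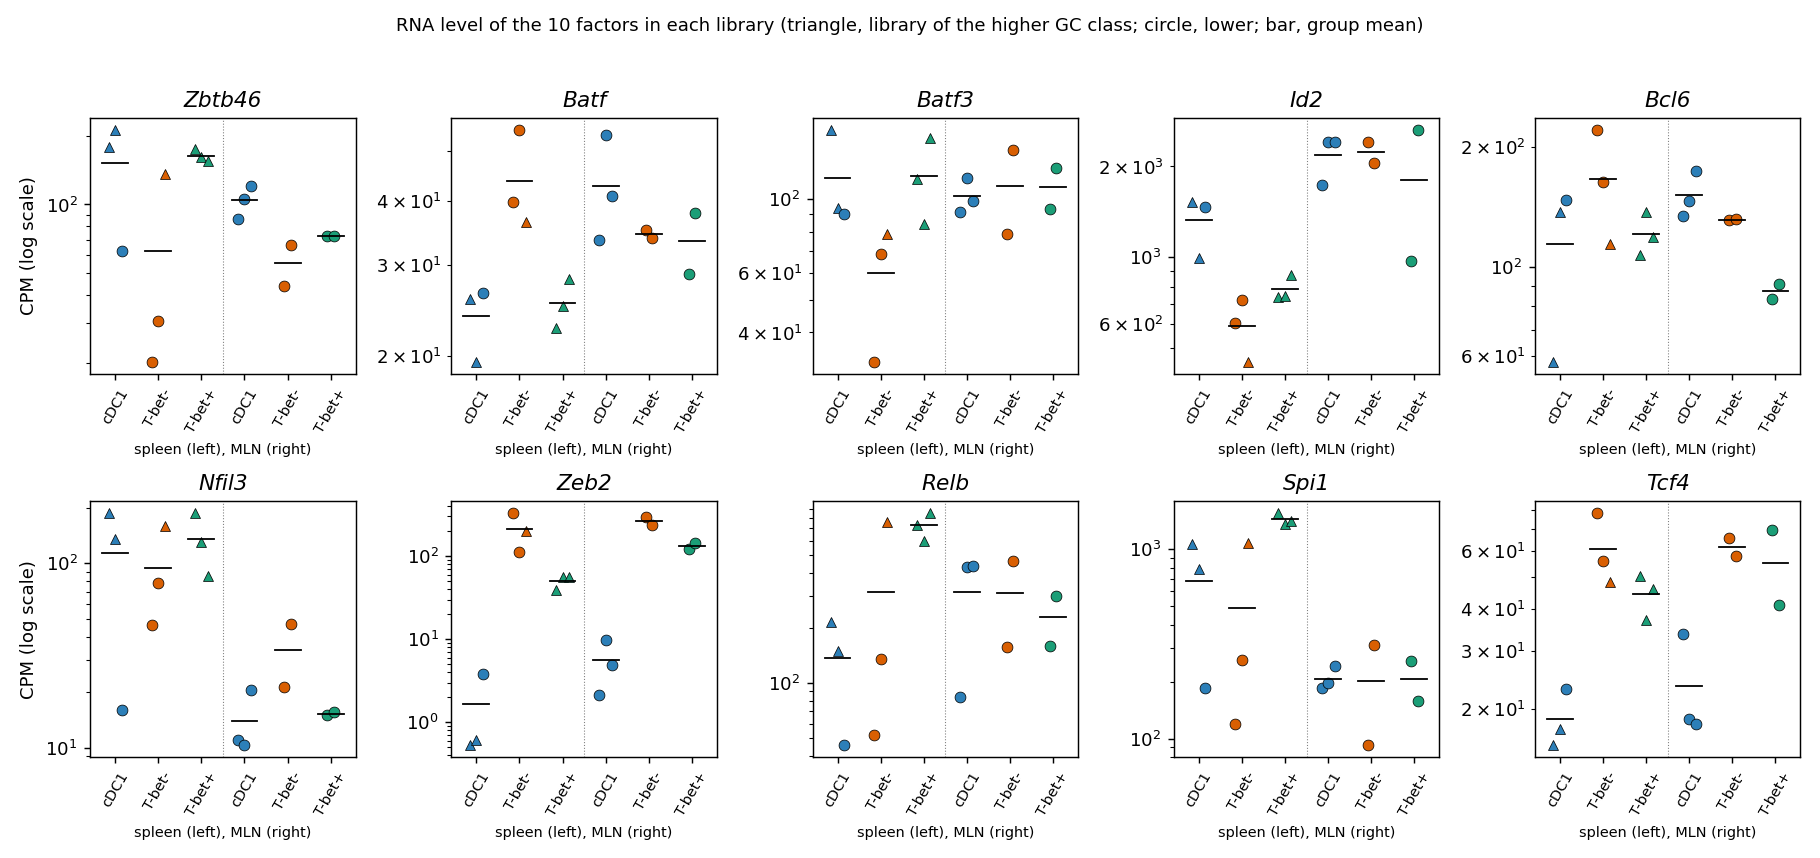
Levels of the 10 genes in each of the 16 RNA libraries, as CPM on a log10 axis, with libraries grouped by tissue and subset. Triangles are higher-GC libraries, circles lower-GC libraries, and bars are group means. Zeb2 separates cDC1 from both cDC2 subsets by more than an order of magnitude, while Nfil3, Relb, Spi1 and Zbtb46 spread within splenic cDC1 and T-bet- cDC2 along the library split.

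In the spleen, the members that separated cDC2 from cDC1 were the E-box repressor Zeb2 and the E protein gene Tcf4, both higher in cDC2, and the E protein inhibitor Id2, which was lower. T-bet+ cDC2 against cDC1 gave 3 of 10 members at an edgeR adjusted p below 0.05, 2 higher and 1 lower, where 18.2% of the 14377 genes tested were called, 9.97% higher and 8.2% lower. T-bet- cDC2 against cDC1 gave 4 members, Batf being added to the same 3 genes, with 3 higher and 1 lower, against 15.9% of all genes (9.65% higher, 6.2% lower). Between T-bet+ and T-bet- cDC2, which is the comparison defined by the reporter, none of the 10 was called by edgeR, against 5.38% of all genes (1.95% higher, 3.44% lower in T-bet+). In that comparison 3 members had an unadjusted p below 0.05, against 18.5% of all genes. DESeq2 called 1 (Zeb2), against 8.31% of genes. The groups did not overlap for 6 members, against 27.0% of genes. The median log2 fold change of the 10 members was 0.19 for T-bet+ cDC2 over cDC1, 0.14 for T-bet- cDC2 over cDC1 and 0.46 for T-bet+ over T-bet- cDC2. All genes had medians of 0.03, -0.01 and -0.01. The comparisons share libraries, so their values are given side by side and not compared with one another.

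In the MLN, edgeR called Zeb2 alone. It was 1 of 10 members for T-bet+ cDC2 over cDC1, against 6.22% of 15298 genes (4.11% higher, 2.11% lower). It was also 1 of 10 for T-bet- cDC2 over cDC1, against 5.79% (4.34% higher, 1.44% lower). DESeq2 called 3 members in the first (Zeb2, Tcf4 and Bcl6), against 11.8% of genes, and 3 in the second (Zeb2, Tcf4 and Nfil3), against 9.84%. No member was called between MLN T-bet+ and T-bet- cDC2 by edgeR, where 0.0% of genes were called, 2 members had an unadjusted p below 0.05 (against 9.44% of all genes) and DESeq2 called 0 (against 1.98% of all genes). Each cDC2 group there has only 2 libraries. A fit with a block by the numbers in the library names, given at the end, called more members against cDC1 and more genes. Between tissues, 1 member was called in T-bet+ cDC2 (Nfil3, higher in spleen), where 5.09% of 16795 genes were called. In T-bet- cDC2 1 was called (Id2, lower in spleen), against 5.95% of genes, and in cDC1 2 were (Nfil3 higher and Batf lower in spleen), against 11.7%. The labels give no day or run of library preparation, and tissue also divides the library split unevenly, so a tissue difference and a preparation difference cannot be told apart. The test of whether a subset difference differed between spleen and MLN called none of the 10 members in any of the 3 contrasts (30 tests, smallest edgeR adjusted p = 0.49, for Batf in T-bet- cDC2 over cDC1). Of all genes, 0.00595%, 0.0893% and 0.0357% were called for T-bet+ over T-bet- cDC2, T-bet+ cDC2 over cDC1 and T-bet- cDC2 over cDC1. At an unadjusted p below 0.05 there were 0, 1 and 2 members in these contrasts, against 5.04%, 8.48% and 5.9% of genes. DESeq2 called 0 members, against 0.251%, 1.39% and 0.652% of genes.

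**Figure D2:**
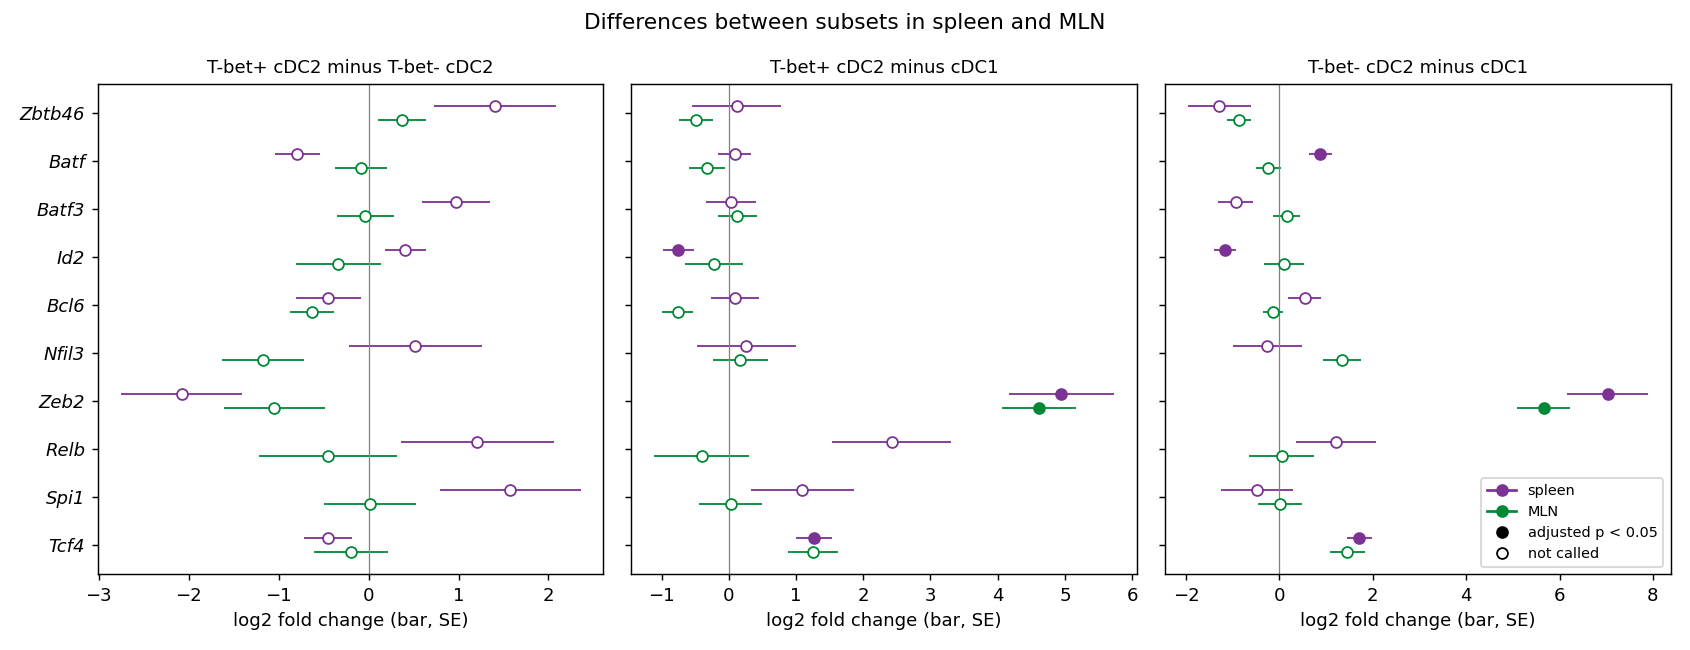
Log2 fold changes of the 10 genes between subsets in spleen and MLN (x axis) with bars of 1 SE, one row per gene. Filled points passed the edgeR adjusted p threshold of 0.05. Zeb2 has the largest differences from cDC1 in both tissues (4.61 to 7.03), and in the spleen Tcf4 is called higher and Id2 lower in both cDC2 subsets.

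Chromatin at these loci was called different at more windows between cDC2 and cDC1 than between the cDC2 subsets, as over all windows. Of the 197 windows, 125 lie in introns, 19 in exons, 25 upstream and 28 downstream of their gene, and 190 passed the filter on low counts. A window was called at an edgeR adjusted p below 0.01 with an absolute log2 fold change above 0.5. Between T-bet+ and T-bet- cDC2, 8 of the 190 windows were called, 6 more open and 2 less open in T-bet+ cDC2, where 6.28% of the 166547 windows tested were called (3.92% more open, 2.36% less open). Leaving out T-bet+ replicate 1 or either T-bet- replicate gave 2 calls in place of 8, and leaving out T-bet+ replicate 2 gave 12. Each such fit leaves 1 library in its group, which is assumed to vary like the other groups. T-bet+ cDC2 differed from cDC1 at 43 windows (22 more open, 21 less open), against 23.0% of all windows (11.0% and 12.0%). T-bet- cDC2 differed from cDC1 at 41 windows (15 more open, 26 less open), against 17.9% (7.32% and 10.6%). The median log2 fold change over the 190 windows was 0.15, 0.03 and -0.05 in these 3 comparisons, beside -0.01, -0.01 and 0.01 over all windows. With 2 libraries per subset and neighbouring windows that can lie in 1 peak or overlap, windows of a gene are not independent of each other. Of the 190 windows 61 (32.1%) were called in at least 1 comparison, against 29.4% of all windows. By gene, windows called in at least 1 comparison numbered 7 of 8 at Id2, 5 of 6 each at Relb and Spi1, 8 of 23 at Batf3, 7 of 24 at Zeb2, 7 of 28 at Zbtb46, 5 of 19 at Bcl6 and 15 of 66 at Tcf4 (60 tested). There were 2 of 14 at Batf (13 tested) and none of 3 at Nfil3.

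**Figure D3:**
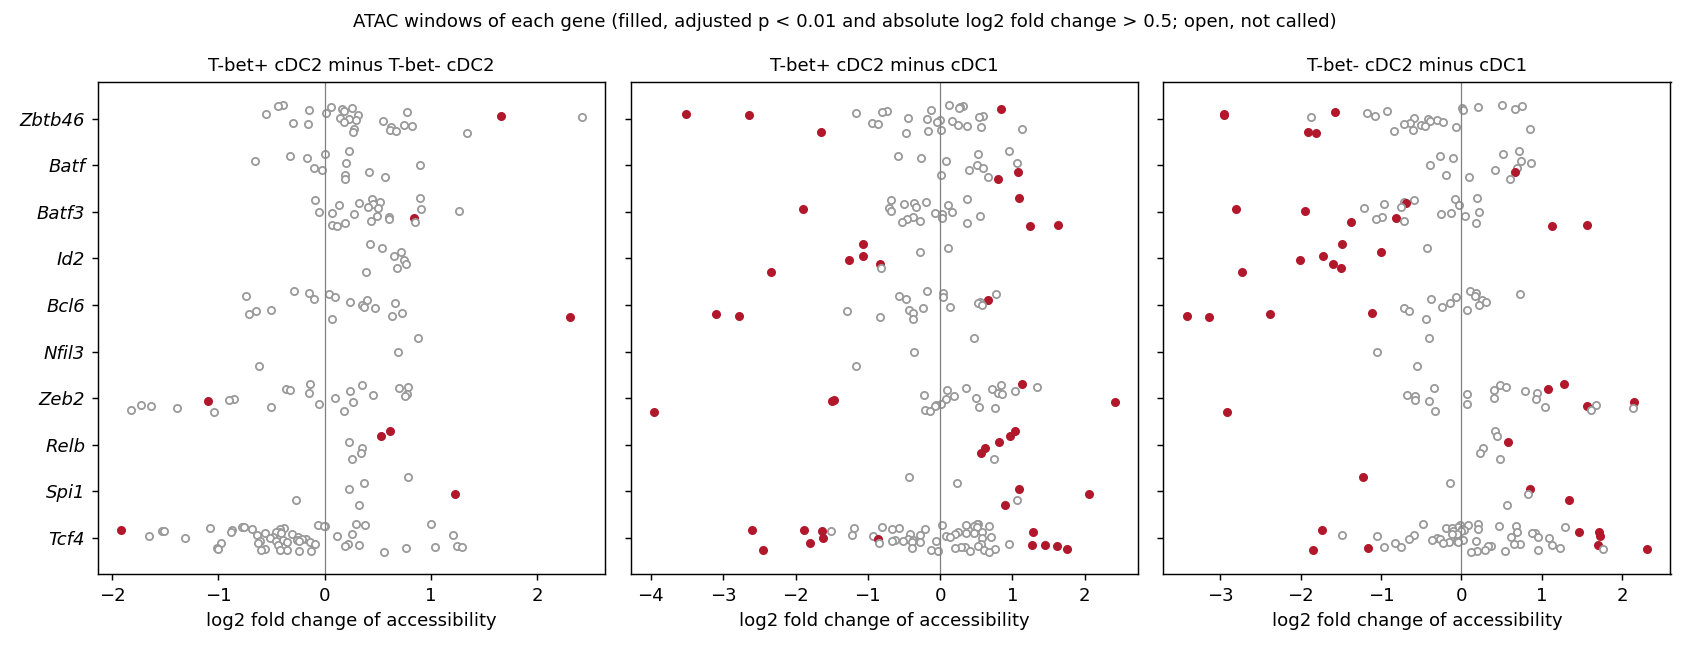
Log2 fold changes of accessibility (x axis) of the tested windows at each of the 10 genes (one row per gene, one point per window) in the 3 ATAC comparisons, with called windows filled. At Id2 every called window is less open in cDC2, and at Relb every called window is more open in T-bet+ cDC2 than in cDC1.

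Id2, which binds E proteins and keeps them off DNA and which cDC1 need for their development, lies at chr12:25093799-25097140, minus strand (mm10). In the spleen it stood at 1521, 997 and 1472 CPM in cDC1, 606, 724 and 449.9 CPM in T-bet- cDC2 and 737, 745 and 875 CPM in T-bet+ cDC2. Both cDC2 groups lay below every cDC1 library, and T-bet+ lay above T-bet- cDC2 without overlap. The log2 fold change was -1.16 ± 0.23 (SE, edgeR adjusted p = 0.0077) for T-bet- cDC2 over cDC1, which held under all 18 alternatives. For T-bet+ cDC2 over cDC1 it was -0.76 ± 0.23 (SE, edgeR adjusted p = 0.048). The T-bet+ call was lost on leaving out cDC1 replicate 1 or 3, T-bet- replicate 1 or any T-bet+ replicate (adjusted p 0.061 to 0.15), and held with the library split as a term (-0.62, adjusted p = 0.049). T-bet+ over T-bet- cDC2 gave 0.41 ± 0.23 (SE, edgeR adjusted p = 0.39), not a call. In the MLN, Id2 stood at 1730, 2404 and 2413 CPM in cDC1, 2402 and 2060 CPM in T-bet- cDC2 and 971 and 2649 CPM in T-bet+ cDC2, so that the groups overlapped and no subset difference was called. T-bet- cDC2 held less Id2 in spleen than in MLN, at a log2 fold change of -1.91 ± 0.35 (SE, edgeR adjusted p = 0.0074). Without MLN T-bet- replicate 1 the adjusted p was 0.061, and with the library split as a term the value was -1.80 (adjusted p = 0.011). In T-bet+ cDC2 and cDC1 the tissue differences were -1.21 ± 0.34 (0.057) and -0.71 ± 0.31 (0.14), with edgeR adjusted p in brackets. DESeq2 called the first (adjusted p = 0.013). Every MLN library was above every splenic library of its subset.

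All 7 called windows at Id2 were less open in T-bet- cDC2 than in cDC1, and 5 of them in T-bet+ cDC2 too. DESeq2 called 6 Id2 windows in the first comparison and 2 in the second. Over all windows it called 17143 of 157255 in the first and 23964 of 164155 in the second. Of the 7, 6 lie within 1564 bases past the 3′ end of the gene. The upstream window at chr12:25105943-25106092, 8877 bases before the gene start, held 3.80 and 2.22 CPM in cDC1, 0.37 and 0.506 CPM in T-bet- cDC2 and 0.761 and 0.418 CPM in T-bet+ cDC2. Its log2 fold change over cDC1 was -2.73 ± 0.58 (SE, edgeR adjusted p = 0.00015) in T-bet- and -2.34 ± 0.55 (SE, edgeR adjusted p = 0.00044) in T-bet+ cDC2. Without cDC1 replicate 1 the 2 values were -2.29 (adjusted p = 0.035) and -1.88 (0.067). Without T-bet+ replicate 2 the second was -1.96 (0.015), and DESeq2 gave adjusted p of 0.011 and 0.021. It is the Id2 window with the largest called difference and is shown for that reason, like the other windows printed here. Letters are from the GRCm38 reference, plus strand, and capitals mark an E-box (CAGNTG), the site class that E proteins bind.
Id2 upstream window: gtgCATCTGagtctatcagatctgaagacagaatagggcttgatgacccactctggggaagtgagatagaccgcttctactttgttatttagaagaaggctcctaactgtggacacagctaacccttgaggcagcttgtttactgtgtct

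Tcf4, the E protein that specifies pDCs, lies at chr18:69343356-69689079, plus strand. Its splenic levels were 15.5, 17.4 and 22.9 CPM in cDC1, 78.5, 55.9 and 48.4 CPM in T-bet- cDC2 and 50.4, 37.2 and 46 CPM in T-bet+ cDC2. In the MLN they were 33.7, 18.6 and 18 CPM in cDC1, 65.8 and 57.9 CPM in T-bet- cDC2 and 69.5 and 41.3 CPM in T-bet+ cDC2. Every cDC2 library exceeded every cDC1 library of its tissue, while the cDC2 subsets overlapped in both. In the spleen Tcf4 was higher than in cDC1 by 1.71 ± 0.27 (SE, edgeR adjusted p = 0.0022) on the log2 scale in T-bet- cDC2 and by 1.26 ± 0.27 (SE, edgeR adjusted p = 0.0097) in T-bet+ cDC2. The second value was 1.13 with an adjusted p of 0.061 without cDC1 replicate 2. In the MLN the values were 1.45 ± 0.37 (0.065) and 1.25 ± 0.37 (0.095), neither called by edgeR with all libraries. DESeq2 called both (adjusted p = 0.013 and 0.033), as did edgeR without cDC1 replicate 1 (adjusted p = 0.022 and 0.026). Scaled by summed exon length its group means were 2.0 to 7.04 TPM (length-scaled share), where those of Id2 ran from 629 to 2852 TPM. That length joins the exons of all annotated transcripts, 27382 bases for Tcf4 and 2438 for Id2. It need not be the length of the transcripts made here, so the contrast depends on the annotation. The sum of the 7 other pDC markers was also higher in splenic cDC2. It was 93.9 to 130.3 CPM in splenic cDC1, 195 to 235 in T-bet- and 141 to 171 in T-bet+ cDC2. Without Spib the other 6 markers summed to 79.8 to 122, 79 to 128 and 62.9 to 81.6 CPM, so that the groups overlapped. That sum joins markers of opposite direction. Mean Bst2 was 49.6, 84 and 61.8 CPM in the same order, and mean Ccr9 was 47.6, 8.03 and 3.61 CPM. Of the 8 pDC markers, Tcf4 included, 6 had splenic means above cDC1 in T-bet- and 5 in T-bet+ cDC2. Ccr9 and Pacsin1 were lower in both. In the MLN the 7 summed to 191 to 465 CPM in cDC1, 536 to 638 in T-bet- and 296 to 476 in T-bet+ cDC2, so that cDC1 and T-bet+ cDC2 overlapped. None was at 0 in a whole splenic group, Klk1 was at 0 in MLN T-bet+ cDC2, and the markers' part in the Tcf4 difference was not tested.

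Of the 7 genes of the E protein and Id family, the members Tcf4 and Id2 included, 6 were tested. In the spleen 2 were higher and 2 lower in T-bet+ cDC2 than in cDC1, 2 and 1 in T-bet- cDC2, and 0 and 1 in T-bet+ over T-bet- cDC2. Median log2 fold changes were -0.32, -0.69 and -0.44. Id3, another inhibitor of E proteins, went the other way from Id2. Its log2 fold change over cDC1 was 5.40 ± 0.38 (1.5e-05) in T-bet- cDC2 and 1.99 ± 0.33 (0.0027) in T-bet+ cDC2, and -3.41 ± 0.34 (0.00066) for T-bet+ over T-bet- cDC2, with SE and, in brackets, edgeR adjusted p. In the MLN, Id3 was again higher in T-bet- cDC2 than in cDC1, at 3.70 ± 0.80 (0.036). Id1 was lower in splenic T-bet+ cDC2 than in cDC1, at -2.17 ± 0.49 (0.013). At Tcf4, chromatin moved in both directions along the gene. A window 57130 bases into the gene fell from 7.60 and 10.1 CPM in cDC1 to 3.21 and 2.13 CPM in T-bet- and 1.30 and 1.57 CPM in T-bet+ cDC2. One 7 bases before an internal transcript start rose from 3.92 and 4.05 CPM to 13.2 and 13 and 9.79 and 9.72 CPM. The log2 fold changes over cDC1 in T-bet+ cDC2 were -2.60 ± 0.37 (SE, edgeR adjusted p = 2.6e-08) and 1.29 ± 0.28 (SE, edgeR adjusted p = 0.00015). An adjoining window, 57451 bases into the gene, set T-bet+ cDC2 (2.83 and 2.40 CPM) below both T-bet- cDC2 (9.12 and 10.6 CPM) and cDC1 (8.20 and 11.2 CPM), at -1.92 ± 0.31 (SE, edgeR adjusted p = 3.1e-06) against T-bet- cDC2. It is one of the 2 windows at the 10 genes that were less open in T-bet+ than in T-bet- cDC2.

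Zeb2, a zinc finger repressor that binds E-boxes and is known to favour cDC2 and pDC fates over cDC1, lies at chr2:44983632-45117395, minus strand. In the spleen it stood at 0.527, 0.617 and 3.82 CPM in cDC1, 332, 112 and 199 CPM in T-bet- cDC2 and 39, 56.8 and 55.7 CPM in T-bet+ cDC2. The cDC1 libraries held 13 to 79 counts, T-bet+ cDC2 985 to 1514 and T-bet- cDC2 2174 to 6884, and no 2 of the 3 groups overlapped. The log2 fold change over cDC1 was 7.03 ± 0.86 (SE, edgeR adjusted p = 0.00048) in T-bet- cDC2 and 4.95 ± 0.78 (SE, edgeR adjusted p = 0.002) in T-bet+ cDC2, and both held under all 18 alternatives. Between the cDC2 subsets Zeb2 was -2.08 ± 0.68 (SE, edgeR adjusted p = 0.12) in T-bet+ over T-bet- cDC2, short of the threshold. Of 18 alternatives 6 called it, among them DESeq2 (adjusted p = 0.018) and the fit without cDC1 replicate 3 (adjusted p = 0.014), the cDC1 library with the most Zeb2. The order was the same in the MLN, with 2.11, 9.84 and 4.88 CPM in cDC1, 299 and 235 CPM in T-bet- cDC2 and 123 and 143 CPM in T-bet+ cDC2. There the log2 fold change was 5.66 ± 0.58 (SE, edgeR adjusted p = 0.002) in T-bet- and 4.61 ± 0.55 (SE, edgeR adjusted p = 0.0041) in T-bet+ cDC2 over cDC1, each called under all 16 alternatives. Between the cDC2 subsets it was -1.05 ± 0.56 (0.63), not called by edgeR or DESeq2. In cDC1, spleen over MLN was -1.78 ± 0.68 (0.097) by edgeR with all libraries, not called. Of 23 alternatives 4 called it. They were DESeq2 (-1.74, adjusted p = 0.042), no filter on low counts, and the fits without splenic cDC1 replicate 3 (-3.28, adjusted p = 0.0071) or without MLN cDC1 replicate 1 (-2.11, 0.048). With the library split as a term it was -1.30 (adjusted p = 0.26).

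Sums of monocyte and macrophage markers, whose cell types also express Zeb2, followed the same order, and so did the splenic means of 5 of the 7 monocyte and 5 of the 8 macrophage markers. The 7 monocyte markers summed to 62 to 119 CPM in splenic cDC1, 364 to 492 in T-bet+ and 2524 to 3897 in T-bet- cDC2. The 8 macrophage markers summed to 194 to 278, 485 to 567 and 1191 to 1681 CPM in the same order. Csf1r was the most abundant monocyte marker of both cDC2 groups, and no marker was at 0 throughout a group. The gate removed CD64+ and Ly6C+ cells, and the part of these cell types in the Zeb2 difference was not tested. The antisense gene Zeb2os lies inside Zeb2 on the other strand (chr2:45110707-45114087, plus strand) and stood at 0, 0 and 0.048 CPM in cDC1, 4.53, 3.75 and 2.04 CPM in T-bet- cDC2 and 1.35, 0.638 and 1.37 CPM in T-bet+ cDC2 in the spleen. Whether the counting used strand is not stated, so reads of the overlapping stretch cannot be told apart. At most 94 counts fell to it in any splenic library. Genes of the list of BTB zinc finger and corepressor genes (13, of which 12 were tested, Zeb2 and the members Bcl6 and Zbtb46 included) gave 2 higher and 1 lower in T-bet+ cDC2 than in cDC1, 2 and 0 in T-bet- cDC2, and 0 and 1 between the cDC2 subsets. The median log2 fold changes were 0.15, 0.16 and 0.05. Ctbp2, a corepressor that Zeb proteins recruit, was lower in T-bet+ cDC2 than in cDC1 (-1.40 ± 0.31 (0.012)) and than in T-bet- cDC2 (-1.30 ± 0.31 (0.044)).

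Although Zeb2 RNA was low in cDC1, one upstream window was most open there. At chr2:45124597-45124746, 7276 bases before the gene start, it held 6.77 and 10.3 CPM in cDC1, 1.11 and 1.11 CPM in T-bet- cDC2 and 0.761 and 0.314 CPM in T-bet+ cDC2. The log2 fold change was -3.96 ± 0.46 (SE, edgeR adjusted p = 4.4e-11) for T-bet+ and -2.92 ± 0.41 (SE, edgeR adjusted p = 2.1e-08) for T-bet- cDC2 over cDC1, called under all 15 alternatives. Capitals mark a Runx motif (TGTGGTT or its complement).
Zeb2 upstream window: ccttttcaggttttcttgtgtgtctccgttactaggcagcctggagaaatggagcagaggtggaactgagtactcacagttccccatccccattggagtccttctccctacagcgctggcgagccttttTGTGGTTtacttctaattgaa

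An intronic window 35759 bases into Zeb2 (chr2:45081562-45081711) was more open in both cDC2 subsets, the groups with more Zeb2 RNA. It held 1.31 and 1.31 CPM in cDC1, 6.90 and 4.86 CPM in T-bet- and 5.33 and 8.68 CPM in T-bet+ cDC2. The log2 fold changes over cDC1 were 2.15 ± 0.40 (SE, edgeR adjusted p = 1.5e-05) and 2.41 ± 0.39 (SE, edgeR adjusted p = 5.8e-07). Of the 7 called Zeb2 windows, 4 were more open and 1 less open in T-bet- cDC2 than in cDC1, and 2 were more open and 3 less open in T-bet+ cDC2. A window 67361 bases into the gene was the other one that was less open in T-bet+ than in T-bet- cDC2 (3.48 and 4.60 against 8.14 and 9.11 CPM), at -1.09 ± 0.29 (SE, edgeR adjusted p = 0.0053). In cDC1 it held 10.7 and 12.3 CPM. The call was lost without T-bet+ replicate 1 or either T-bet- replicate (adjusted p 0.02 to 0.08) and by DESeq2 (0.027). The window nearest the Zeb2 start was not called in any comparison. It lies inside the gene at chr2:45112084-45112233, and no window covered the gene start itself at 45117395.

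**Figure D4:**
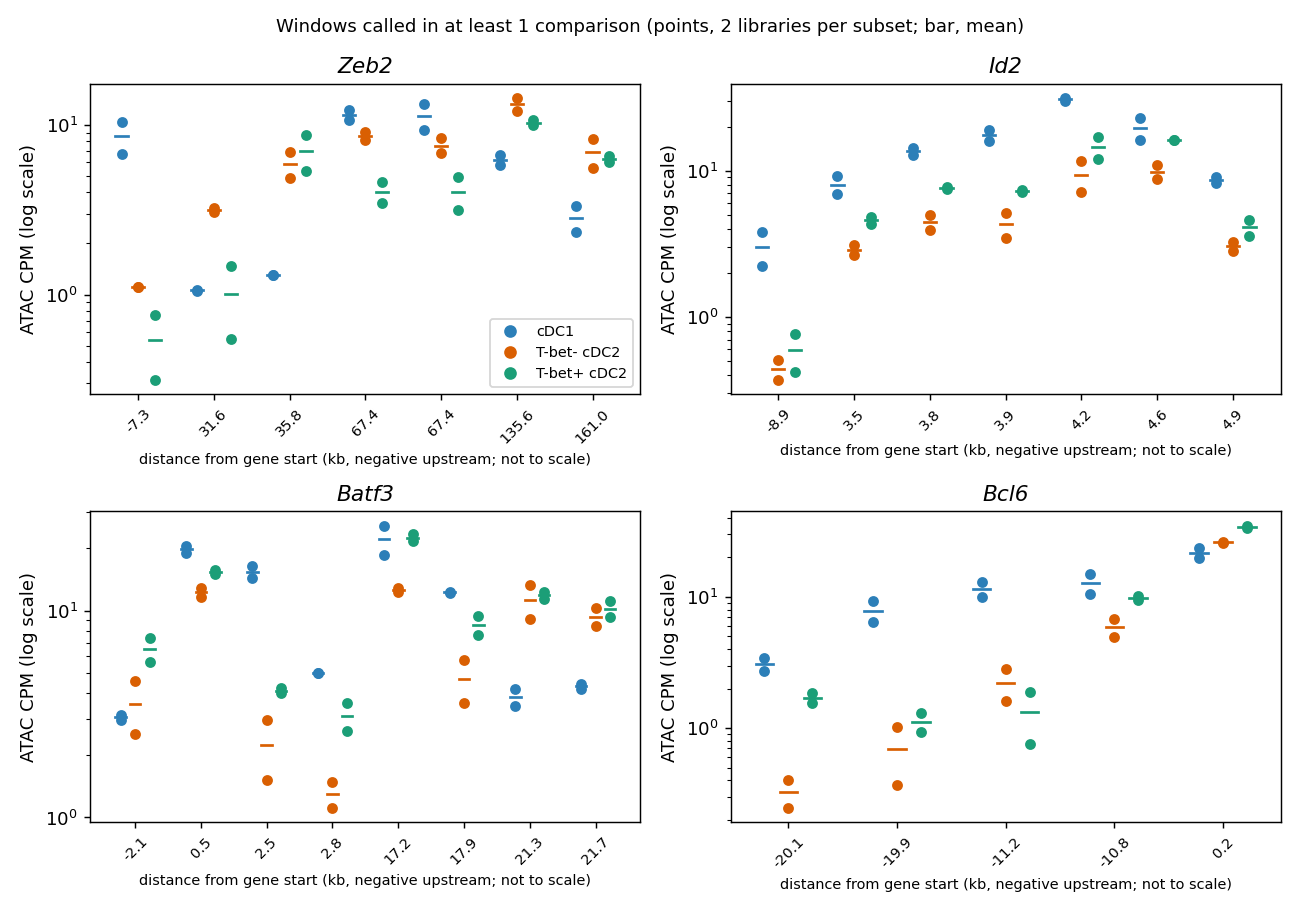
Called windows at Zeb2, Id2, Batf3 and Bcl6 in order of their distance from the gene start in kilobases (x axis, not to scale), with CPM of each library as points and the mean of each subset as a bar (y axis, log scale). The Zeb2 window upstream of the start is most open in cDC1, and at Id2 both cDC1 libraries lie above both T-bet- cDC2 libraries in every window.

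Batf3 and Batf are short basic leucine zipper proteins of the AP-1 family that pair with Jun proteins and with Irf4 or Irf8. Batf3 is needed for cDC1, and Batf can stand in for it. Batf3 (chr1:191097847-191108945, plus strand) stood at 161, 94 and 90.5 CPM in cDC1, 32.6, 68.6 and 78.7 CPM in T-bet- cDC2 and 115, 84.1 and 153 CPM in T-bet+ cDC2 in the spleen. T-bet- cDC2 lay below both other groups and T-bet+ cDC2 overlapped cDC1, yet none of the splenic differences was called. The log2 fold change was -0.94 ± 0.38 (SE, edgeR adjusted p = 0.14) for T-bet- cDC2 over cDC1, 0.03 ± 0.38 (0.97) for T-bet+ cDC2 over cDC1 and 0.97 ± 0.38 (0.21) for T-bet+ over T-bet- cDC2. In the MLN it stood at 91.5, 116 and 98.7 CPM in cDC1, 78.9 and 140.4 CPM in T-bet- cDC2 and 93.5 and 124 CPM in T-bet+ cDC2, with all 3 groups overlapping. Batf (chr12:85686669-85709087, plus strand) stood at 25.8, 19.4 and 26.5 CPM in cDC1, 39.9, 55.1 and 36.4 CPM in T-bet- cDC2 and 22.7, 24.9 and 28.2 CPM in T-bet+ cDC2 in the spleen, so that every T-bet- library lay above every other splenic library. T-bet- cDC2 over cDC1 gave 0.87 ± 0.25 (SE, edgeR adjusted p = 0.041), but only 4 of 18 alternatives kept the call. It was lost on leaving out any library except T-bet- replicate 3 (adjusted p 0.063 to 0.18). T-bet+ over T-bet- cDC2 gave -0.79 ± 0.25 (SE, edgeR adjusted p = 0.11), called without T-bet- replicate 3 alone (-0.99, adjusted p = 0.04). In that fit only lower-GC T-bet- libraries remain, and with the library split as a term the value was -0.57 (adjusted p = 0.34). In the MLN, Batf stood at 33.6, 53.7 and 41 CPM in cDC1, 35.1 and 33.9 CPM in T-bet- cDC2 and 28.8 and 37.9 CPM in T-bet+ cDC2, without a called difference. cDC1 held less Batf in spleen than in MLN, at a log2 fold change of -0.84 ± 0.25 (SE, edgeR adjusted p = 0.041), a call that 6 of 23 alternatives kept. Leaving out any library other than splenic cDC1 replicate 3, splenic T-bet- replicate 3 or MLN cDC1 replicate 1 ended it (adjusted p 0.051 to 0.19).

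Chromatin at Batf3 went in both directions. An intronic window at chr1:191100287-191100436, 2514 bases into the gene and 116 bases before an internal transcript start, held 16.4 and 14.4 CPM in cDC1, 2.96 and 1.52 CPM in T-bet- and 4.24 and 3.97 CPM in T-bet+ cDC2. The log2 fold changes over cDC1 were -2.81 ± 0.32 (SE, edgeR adjusted p = 3.5e-11) and -1.90 ± 0.28 (SE, edgeR adjusted p = 9.3e-08). A window 10182 bases past the gene's end moved the other way, from 3.44 and 4.18 CPM in cDC1 to 9.12 and 13.3 and 11.4 and 12.2 CPM in T-bet- and T-bet+ cDC2. Another, 6118 bases past the end, was more open in T-bet+ than in T-bet- cDC2 (23.4 and 21.6 against 12.8 and 12.3 CPM), at 0.84 ± 0.21 (SE, edgeR adjusted p = 0.0028), beside 18.5 and 25.7 CPM in cDC1. The call was lost without T-bet+ replicate 1 or either T-bet- replicate (adjusted p 0.014 to 0.047) and by DESeq2 (0.011). At Batf, an intronic window at chr12:85705602-85705751 held 22.8 and 22.2 CPM in cDC1, 33.7 and 37.7 CPM in T-bet- and 54.5 and 40.9 CPM in T-bet+ cDC2. It was more open in T-bet+ cDC2 than in cDC1 by 1.08 ± 0.18 (SE, edgeR adjusted p = 6.6e-07) on the log2 scale, under all 16 alternatives. Capitals in the Batf3 window mark an E-box, and the Batf window held none of the motifs searched.
Batf3 intronic window: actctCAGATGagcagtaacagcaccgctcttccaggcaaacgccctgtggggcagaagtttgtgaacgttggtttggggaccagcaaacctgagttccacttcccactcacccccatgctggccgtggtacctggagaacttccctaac
Batf intronic window: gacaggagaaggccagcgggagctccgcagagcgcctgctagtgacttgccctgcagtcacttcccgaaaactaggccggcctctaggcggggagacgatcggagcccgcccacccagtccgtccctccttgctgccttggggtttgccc

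Among 13 Batf partners and AP-1 genes, the members Batf and Batf3 included, 3 were higher and 2 lower in splenic T-bet+ cDC2 than in cDC1, 5 and 2 in T-bet- cDC2, and 0 and 2 in T-bet+ over T-bet- cDC2. The median log2 fold changes were 0.94, 0.47 and 0.20. The interferon regulatory factors that Batf proteins pair with went in opposite directions. Irf8, which cDC1 need, was lower than in cDC1, at -5.80 ± 0.43 (2.1e-05) in T-bet+ and -3.63 ± 0.39 (0.00021) in T-bet- cDC2 (log2 fold change, SE and edgeR adjusted p). Irf4 was higher, at 4.91 ± 0.45 (7.6e-05) and 3.36 ± 0.42 (0.00056). Irf8 was also lower in T-bet+ than in T-bet- cDC2, at -2.17 ± 0.37 (0.0098). Fosl2, an AP-1 subunit, was higher in both cDC2 subsets (2.26 ± 0.34 (0.0016) and 2.25 ± 0.34 (0.0017)). In the MLN it was called in T-bet- cDC2 (2.47 ± 0.54 (0.037)) and Irf8 in T-bet+ cDC2 (-4.22 ± 0.78 (0.02)).

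Zbtb46, a BTB zinc finger repressor that marks cDCs and their committed precursors, lies at chr2:181387762-181459426, minus strand. It stood at 179.9, 214 and 62.3 CPM in cDC1, 20.1, 30.6 and 136 CPM in T-bet- cDC2 and 176, 162 and 155 CPM in T-bet+ cDC2 in the spleen. Within cDC1 and T-bet- cDC2 the higher-GC libraries held 3.16 and 5.35 times the level of the lower-GC ones. No splenic difference was called, with -1.29 ± 0.67 (SE, edgeR adjusted p = 0.25) for T-bet- cDC2 over cDC1 and 1.41 ± 0.68 (0.31) for T-bet+ over T-bet- cDC2. With the library split as a term T-bet- cDC2 was below cDC1, at -0.91 (edgeR adjusted p = 0.02), and without T-bet- replicate 3 at -2.64 (adjusted p = 0.01). The latter fit keeps only lower-GC T-bet- libraries, so the library split enters its value. In the MLN, where all libraries are lower-GC, Zbtb46 stood at 86.1, 105 and 121 CPM in cDC1, 43.9 and 66.1 CPM in T-bet- cDC2 and 72.3 and 72.5 CPM in T-bet+ cDC2. The rho of these libraries still ran from -0.177 to 0.044, -0.314 to 0.002 and -0.248 to -0.215 in the same order. GC composition was thus not held constant within the MLN. There cDC1 lay above both cDC2 groups without overlap, and T-bet- cDC2 over cDC1 gave -0.86 ± 0.25 (0.098), not called by edgeR or DESeq2. Bcl6 (chr16:23965052-23988852, minus strand), a BTB zinc finger repressor known to support cDC1, stood at 58, 138 and 147 CPM in cDC1, 221, 163 and 115 CPM in T-bet- cDC2 and 108, 138 and 119 CPM in T-bet+ cDC2 in the spleen. In the MLN it stood at 135, 147 and 174 CPM in cDC1, 131 and 132 CPM in T-bet- cDC2 and 83.3 and 91 CPM in T-bet+ cDC2. The splenic groups overlapped and none of their differences was called. In the MLN the 2 T-bet+ libraries were the lowest, at -0.77 ± 0.23 (0.092) against cDC1 and -0.63 ± 0.24 (0.48) against T-bet- cDC2, neither called by edgeR. DESeq2 called the first (adjusted p = 0.035).

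At both loci the largest chromatin differences set cDC1 above cDC2. An intronic window of Zbtb46 at chr2:181420485-181420634 held 5.94 and 11.5 CPM in cDC1, 0.74 and 1.42 CPM in T-bet- and 1.2 and 0.314 CPM in T-bet+ cDC2. Its log2 fold changes over cDC1 were -2.96 ± 0.42 (SE, edgeR adjusted p = 4.3e-08) and -3.51 ± 0.45 (SE, edgeR adjusted p = 1.1e-09). A window 19927 bases upstream of Bcl6 at chr16:24008705-24008854 held 6.42 and 9.27 CPM in cDC1, 0.37 and 1.01 CPM in T-bet- and 1.30 and 0.941 CPM in T-bet+ cDC2. Its log2 fold changes were -3.42 ± 0.44 (SE, edgeR adjusted p = 3.1e-09) and -2.79 ± 0.41 (SE, edgeR adjusted p = 5.2e-08). Both windows were called under all 15 alternatives. The next Bcl6 window, 20094 bases upstream, was more open in T-bet+ cDC2 (1.85 and 1.57 CPM) than in T-bet- cDC2 (0.247 and 0.405 CPM), at 2.31 ± 0.62 (SE, edgeR adjusted p = 0.0073). The call was lost on leaving out either library of either cDC2 subset (adjusted p 0.013 to 0.078) and by DESeq2 (0.065). Capitals mark an E-box in the Zbtb46 window and a T-box motif (AGGTGTNA or its complement), the class that T-bet binds, in the Bcl6 window.
Zbtb46 intronic window: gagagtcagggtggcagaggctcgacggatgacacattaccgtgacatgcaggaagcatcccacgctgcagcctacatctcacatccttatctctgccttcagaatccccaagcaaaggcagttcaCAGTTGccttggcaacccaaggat
Bcl6 upstream window: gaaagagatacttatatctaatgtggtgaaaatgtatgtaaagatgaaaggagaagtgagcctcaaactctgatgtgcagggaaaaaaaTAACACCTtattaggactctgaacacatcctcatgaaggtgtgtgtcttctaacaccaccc

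Nfil3, a basic leucine zipper repressor that acts in cDC1 progenitors, lies at chr13:52967209-52981073, minus strand. In the spleen it stood at 188, 135 and 16 CPM in cDC1, 46.5, 78 and 159 CPM in T-bet- cDC2 and 188, 131 and 85.8 CPM in T-bet+ cDC2. The higher-GC libraries held 10.1 times the level of the lower-GC one in cDC1 and 2.56 times in T-bet- cDC2. The groups overlapped, and no splenic difference was called. In the MLN it stood at 11, 10.3 and 20.6 CPM in cDC1, 21.4 and 46.7 CPM in T-bet- cDC2 and 15.1 and 15.5 CPM in T-bet+ cDC2. T-bet- cDC2 over cDC1 was there 1.34 ± 0.41 (0.11), called by DESeq2 (adjusted p = 0.046) but not by edgeR. Nfil3 was higher in spleen than in MLN by 3.02 ± 0.71 (SE, edgeR adjusted p = 0.017) on the log2 scale in cDC1, where the tissues overlap through splenic replicate 3. The value was 3.14 ± 0.84 (SE, edgeR adjusted p = 0.047) in T-bet+ cDC2, where they do not. With the library split as a term these values fell to 0.94 (adjusted p = 0.38) and 0.81 (adjusted p = 0.66), and the T-bet+ comparison sets only higher-GC against only lower-GC libraries. The cDC1 call was also lost without splenic replicate 1 or 2 or MLN replicate 2 (adjusted p 0.058 to 0.087). The T-bet+ call was lost without splenic cDC1 replicate 2, any splenic T-bet+ library or any MLN library (0.054 to 0.4). Its 3 windows, the nearest 7587 bases upstream, gave no call by edgeR in the 3 comparisons, and DESeq2 called 0. In these comparisons 0, 1 and 1 of them had an unadjusted edgeR p below 0.05, against 39233, 66880 and 59410 of all 166547 windows. DESeq2 called 4844 of 115853, 23964 of 164155 and 17143 of 157255 windows.

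Nfil3 competes with the PAR basic leucine zipper factors for their sites. Of 11 such and circadian genes, Nfil3 included, 9 were tested. In splenic T-bet+ cDC2 3 were higher than in cDC1 and 0 lower, in T-bet- cDC2 2 and 0, with medians of 1.07 and 0.84. Bhlhe40, a repressor of circadian genes, was higher in both (2.42 ± 0.18 (1.8e-05) and 2.84 ± 0.18 (8.6e-06)) and in both MLN cDC2 subsets (1.95 ± 0.46 (0.048) and 2.89 ± 0.47 (0.013)), given as log2 fold change, SE and edgeR adjusted p. The PAR factor Dbp was higher in splenic T-bet+ cDC2, at 2.16 ± 0.41 (0.0056).

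Relb, the NF-kB subunit of the alternative pathway, needed for splenic cDC2 and raised in mature dendritic cells, lies at chr7:19606217-19629438, minus strand. In the spleen it stood at 214, 149.8 and 45.6 CPM in cDC1, 51.7, 135 and 762 CPM in T-bet- cDC2 and 735, 598 and 853 CPM in T-bet+ cDC2. T-bet+ cDC2 lay above every cDC1 library, while T-bet- cDC2 spanned both, its higher-GC library (replicate 3) at 8.14 times the mean of the other 2. In cDC1 that ratio was 4.0. T-bet+ cDC2 over cDC1 gave 2.42 ± 0.88 (SE, edgeR adjusted p = 0.093), not called by edgeR but called by DESeq2 (0.01), and 1.82 (adjusted p = 0.0071) with the library split as a term. Without T-bet- replicate 1 or 3 the adjusted p was 0.04 and 0.021. T-bet- cDC2 over cDC1 gave 1.21 ± 0.85 (0.4), and 1.56 (adjusted p = 0.012) with that term. In the MLN it stood at 84.2, 428 and 435 CPM in cDC1, 157 and 467 CPM in T-bet- cDC2 and 159 and 299.5 CPM in T-bet+ cDC2, with all 3 groups overlapping. Mature DC markers (8 genes, Cd83 the most abundant in the spleen) summed to 7643 to 8636 CPM in splenic cDC1, 9744 to 10409 in T-bet- and 13140 to 14268 in T-bet+ cDC2. By single markers, the splenic means of 3 of the 8 were above cDC1 in T-bet- and of 5 in T-bet+ cDC2. In the MLN the 8 summed to 6999 to 18070, 14226 to 17348 and 6777 to 15074 CPM in the same order, with all groups overlapping. None was at 0 throughout a group, and their part in the Relb levels was not tested.

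Chromatin at Relb was most open in T-bet+ cDC2. All 5 called windows, within 867 bases of the gene start, were more open in T-bet+ cDC2 than in cDC1, 1 was more open in T-bet- cDC2 than in cDC1, and 2 were more open in T-bet+ than in T-bet- cDC2. The first-intron window at chr7:19628497-19628646, 98 bases before an internal transcript start, held 45.4 and 44.9 CPM in cDC1, 61.6 and 59.4 CPM in T-bet- and 107 and 78.3 CPM in T-bet+ cDC2, so that no 2 groups overlapped. T-bet+ cDC2 exceeded cDC1 by 1.04 ± 0.15 (SE, edgeR adjusted p = 6.9e-08) on the log2 scale under all 16 alternatives, and T-bet- cDC2 by 0.62 ± 0.15 (SE, edgeR adjusted p = 0.0026), kept by 12 of 16. Without T-bet+ replicate 1 the second value was 0.38 (adjusted p = 0.19), and without either T-bet- replicate the adjusted p was 0.019 and 0.035. The window held none of the motifs searched.
Relb intronic window: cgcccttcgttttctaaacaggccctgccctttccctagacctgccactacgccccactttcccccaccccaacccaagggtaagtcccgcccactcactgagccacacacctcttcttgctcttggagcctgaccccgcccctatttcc

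Of 10 genes for NF-kB subunits and inhibitors, Relb included, 3 were higher in splenic T-bet+ cDC2 than in cDC1 and 3 in T-bet- cDC2, none was lower, and none was called between the cDC2 subsets by edgeR. In the same order, median log2 fold changes were 0.88, 0.79 and 0.05. Nfkb1, the precursor of the p50 subunit, had the smallest adjusted p (2.52 ± 0.18 (1.7e-05) in T-bet+ and 2.16 ± 0.18 (4.7e-05) in T-bet- cDC2). It was followed among called genes by the inhibitor Nfkbie (1.36 ± 0.20 (0.0015) and 1.87 ± 0.21 (0.00026)) and by Traf3, which restrains the alternative pathway (0.82 ± 0.25 (0.048) and 0.93 ± 0.25 (0.032)). In the MLN, Nfkb1 was called in T-bet+ cDC2, at 2.05 ± 0.40 (0.024).

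Spi1 encodes PU.1, the ETS factor that dendritic cell development requires, and lies at chr2:91082390-91115756, plus strand. It stood at 1066, 791 and 186 CPM in cDC1, 119, 259 and 1084 CPM in T-bet- cDC2 and 1561, 1370 and 1412 CPM in T-bet+ cDC2 in the spleen. In the MLN it stood at 186, 196 and 241 CPM in cDC1, 92 and 313 CPM in T-bet- cDC2 and 256 and 158 CPM in T-bet+ cDC2. Splenic T-bet+ cDC2 held the 3 highest values, but cDC1 replicate 3 and T-bet- replicates 1 and 2, the lower-GC libraries, were at the MLN level. The ratio of higher-GC to lower-GC libraries was 5.0 in cDC1 and 5.73 in T-bet- cDC2. No splenic difference was called (1.09 ± 0.77 (SE, edgeR adjusted p = 0.39) for T-bet+ cDC2 over cDC1 and 1.57 ± 0.78 (0.32) over T-bet- cDC2). Without T-bet- replicate 3 the second became 2.86 (adjusted p = 0.041), in a fit that sets only lower-GC T-bet- against only higher-GC T-bet+ libraries. With the library split as a term the 2 values were 0.61 (edgeR adjusted p = 0.14) and 0.49 (0.55). In the higher-GC libraries alone they were 0.64 and 0.41, with only T-bet- replicate 3 in its group. Spleen over MLN gave 1.71 ± 0.71 (0.12) in cDC1 and 2.81 ± 0.88 (0.075) in T-bet+ cDC2, not called by edgeR. Of 23 alternatives 6 called the T-bet+ value, among them DESeq2 (2.75, adjusted p = 0.0046), and with the library split as a term it was 0.39 (adjusted p = 0.81). The cDC1 value was called by DESeq2 (adjusted p = 0.0497), with no filter on low counts and without splenic cDC1 replicate 3 (2.16, 0.046). It turned to -0.23 with the library split as a term. Scaled by summed exon length Spi1 group means ran from 233 to 1521 TPM, and in every splenic group Spi1 and Id2 had the highest means of the 10.

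One of the 6 Spi1 windows was called between the cDC2 subsets. This intronic window at chr2:91091607-91091756, 9291 bases into the gene, held 4.63 and 4.44 CPM in cDC1, 7.89 and 8.20 CPM in T-bet- and 23.1 and 14.7 CPM in T-bet+ cDC2, again without overlap. T-bet+ cDC2 exceeded T-bet- cDC2 by 1.23 ± 0.24 (SE, edgeR adjusted p = 0.00016) and cDC1 by 2.05 ± 0.27 (SE, edgeR adjusted p = 1.6e-09) on the log2 scale. Without T-bet+ replicate 1 the first was 0.88 (adjusted p = 0.039). A window 684 bases into the gene was more open in both cDC2 subsets (21.5 and 22.7 CPM in T-bet- and 27.3 and 24.6 CPM in T-bet+ cDC2) than in cDC1 (10.3 and 14.1 CPM). One 1397 bases upstream was less open in T-bet- cDC2 (6.66 and 9.82 CPM) than in cDC1 (19.1 and 19.6 CPM), beside 15.8 and 13 CPM in T-bet+ cDC2. Capitals mark an E-box, which is also of the Zeb type CACCTG.
Spi1 intronic window: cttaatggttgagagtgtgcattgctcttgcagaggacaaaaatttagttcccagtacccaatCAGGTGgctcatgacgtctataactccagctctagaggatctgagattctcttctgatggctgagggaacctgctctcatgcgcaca

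Of 10 ETS factors of haematopoietic cells 9 were tested, Spi1 included. In the list 2 were higher in splenic T-bet+ cDC2 than in cDC1, 3 in T-bet- cDC2, none lower, and 1 was lower in T-bet+ than in T-bet- cDC2. The median log2 fold changes were 0.40, 0.50 and -0.21. Spib, the closest relative of PU.1 and a pDC and B cell factor, was higher in both cDC2 subsets (2.94 ± 0.25 (5.3e-05) and 3.47 ± 0.26 (2.5e-05), edgeR adjusted p in brackets). Spic, a factor of red pulp macrophages, was higher in T-bet- cDC2 (2.78 ± 0.27 (0.00012)) and lower in T-bet+ than in T-bet- cDC2 (-2.39 ± 0.27 (0.0012)). A list of 24 regulators of DC development holds the member Zbtb46 and shares Irf4, Irf8 and Etv6 with lists given above. Of the 24 genes 23 were tested. Of these 4 were higher and 2 lower in T-bet+ cDC2 than in cDC1, 4 and 2 in T-bet- cDC2, and 0 and 1 between the cDC2 subsets. Their median log2 fold changes were 0.13, 0.14 and 0.05. Klf4, which part of the cDC2 lineage needs, was among those higher, at 3.13 ± 0.44 (0.00096) in T-bet+ and 2.86 ± 0.43 (0.0017) in T-bet- cDC2.

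How far a member followed the library split can be read from its ratio between higher-GC and lower-GC libraries of 1 subset. The split was itself made from the GC measure given below, so a general relation between ratio and GC content is built in. In cDC1 and T-bet- cDC2 the ratio over 11103 genes had a median of 0.961 and 0.96, with 5th to 95th percentiles of 0.5 to 4.95 and 0.51 to 4.60. Nfil3 and Spi1 in cDC1, and Spi1, Relb and Zbtb46 in T-bet- cDC2, lay above those ranges. Batf, Id2, Tcf4 and Bcl6 were between 0.597 and 0.855 in both subsets. The most GC-rich 100 bases reached 86% GC in Nfil3, 83% in Relb, 82% in Zbtb46 and 80% in Spi1. It was 71% or less in Id2, Batf, Bcl6 and Tcf4, against a median of 72% over all genes kept. Zeb2, at 82%, did not follow this order: its ratio was 0.897 in T-bet- cDC2, and 0.15 on the low counts of cDC1.

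**Figure D5:**
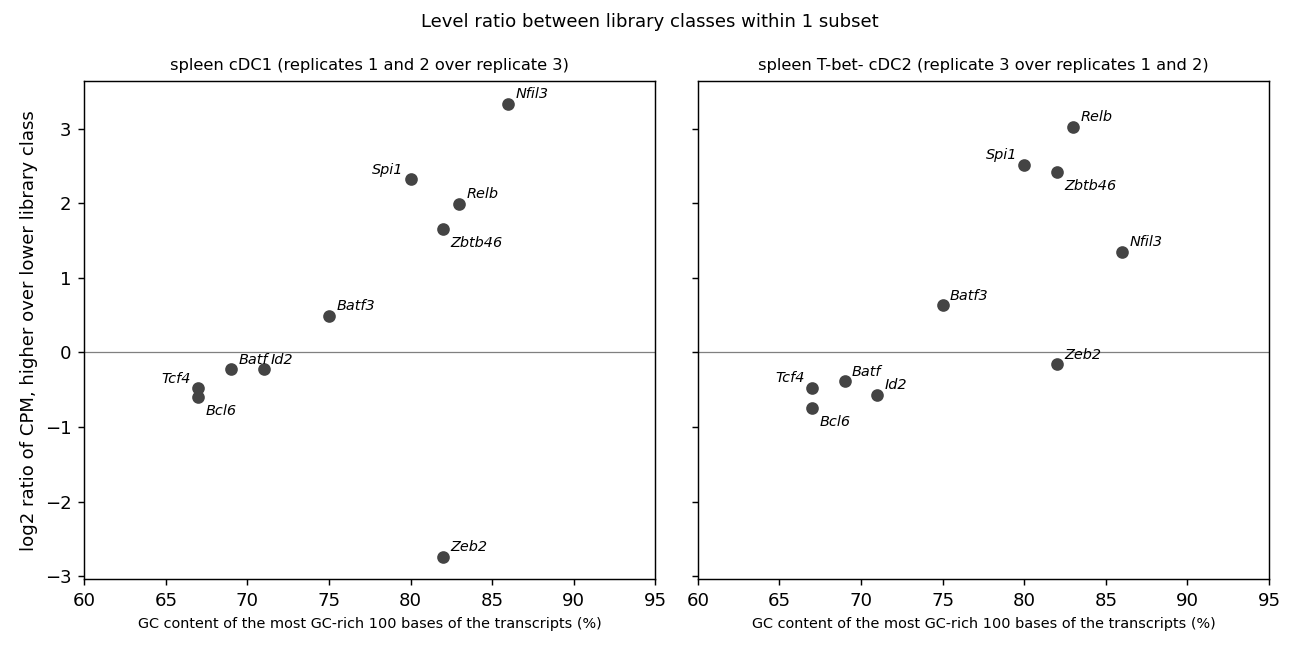
Ratio of CPM between higher-GC and lower-GC splenic libraries of 1 subset (log2, y axis) against the GC content of the most GC-rich 100 bases of the transcript (percent, x axis) for the 10 genes, in cDC1 (left) and T-bet- cDC2 (right). Nfil3, Relb, Spi1 and Zbtb46 sit highest in both panels. The library classes were defined with this same GC measure.

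Genes most like each member over the 16 libraries, by Pearson correlation of log2 CPM among 9195 genes, are given as a description. The libraries share subset, tissue and the GC split. For Zeb2 they were Fcer2a (0.982), Apobec1 (0.98) and Tlr1 (0.977), and for Tcf4 Tmem173 (0.939), Knop1 (0.936) and Ms4a6b (0.936). For Id2 they were Sec11c (0.989), Bcl2l1 (0.974) and Cetn4 (0.969), for Batf Vgll4 (0.898), Mad2l1bp (0.895) and Anxa5 (0.893) and for Batf3 Zfp511 (0.909), Zfp219 (0.855) and Zfpl1 (0.853). Chuk (0.975) and Mau2 (0.961) were among the genes most like Zbtb46, and Supt5 (0.786) and Ppp1r10 (0.779) among those most like Bcl6. Nfil3 was most like Tnfaip2 (0.984), Grasp (0.974) and Slc25a33 (0.952). Relb was most like Gga2 (0.966), Gramd1a (0.965) and Mreg (0.954), and Spi1 like Rasal3 (0.989), Mtdh (0.989) and H2afj (0.985). Among the members themselves the highest values joined Zeb2 with Tcf4 (0.897), Nfil3 with Spi1 (0.831) and Zbtb46 with Spi1 (0.787).

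Motifs were searched as letters on both strands, and a match describes the sequence only. The E-box CAGNTG was in 61 of the 197 windows and in 33.5% of all windows, and the Zeb-type E-box CACCTG was in 24 of the 197 windows and in 10.8% of all windows. The AP-1 motif TGANTCA was in 17 of the 197 windows and in 7.90% of all windows, the PU.1 motif GAGGAAGT was in 9 of the 197 windows and in 5.50% of all windows, and the Runx motif TGTGGTT was in 17 of the 197 windows and in 5.23% of all windows. The T-box motif AGGTGTNA was in 4 of the 197 windows and in 1.92% of all windows, and the Bcl6 motif TTCCNNGAA was in 7 of the 197 windows and in 2.14% of all windows. The Nfil3 motif TTANGTAA was in 1 of the 197 windows and in 1.12% of all windows, and the NF-kB motif GGGANTTCC was in 1 of the 197 windows and in 1.08% of all windows. Among the 61 windows called in at least 1 comparison, 18 held the E-box, 6 the AP-1, 3 the PU.1, 2 the T-box and 3 the Runx motif.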

How the data were processed

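RNA and open chromatin of sorted mouse dendritic cells were measured as described above. The authors aligned RNA reads with HISAT2 2.1.0 and ATAC reads with Bowtie2 2.2.5 to mm10 (GRCm38), used SAMtools 1.9 and R 3.4.0, and deposited raw counts per gene (GENCODE annotation, counted with Rsubread; whether by strand is not stated). They called peaks with MACS2 2.1.1.20160309 over the ATAC libraries together and deposited counts in 150-base windows around peak summits, a peak score and −log10 p-values; the score and −log10 columns were not used as results.

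Counts were analysed as deposited with edgeR 4.0.16 in R 4.3.3 (quasi-likelihood test, TMM scaling, filterByExpr, Benjamini-Hochberg over all genes or windows). Spleen (9 libraries) and MLN (7) were each fitted on their own, comparisons between tissues in 1 fit of all 16, and ATAC (6) in 1 fit. Genes were called at an adjusted p below 0.05, windows below 0.01 with an absolute log2 fold change over 0.5. CPM uses TMM library sizes, and TPM divides by the summed exon length in GENCODE M21. Alternatives were DESeq2 1.42.0, other scalings and filters, another dispersion estimate, the compared libraries alone, a replicate block, each library left out, whole peaks and the library split as a term. For windows, a stricter fold change threshold and a count of windows within 10000 bases of the gene reused the main fit. The latter cannot change the value or call of a single window, but is counted among its alternatives. Scripts were tested on simulated data. Samples were grouped by their labels. All 10 members are named; of each list up to 4 genes with the smallest adjusted p per comparison, and for each member the 3 genes most correlated with it, of which 2 are not reported here. The members and lists were chosen with earlier results of these data known. The labels were followed for the sign of RFP, and Tbx21 levels go with them. One sentence of the study's methods gives the sign of the cDC2 subsets the other way round. Sequences are from the GRCm38.p6 reference.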

Additional observations from a re-analysis of the deposited data

How the results depend on the processing

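The calls of Zeb2 over cDC1 in both tissues, and of Id2 and Tcf4 in splenic T-bet- cDC2 over cDC1, held under every alternative run within a tissue. For T-bet+ over T-bet- cDC2 in the spleen, where edgeR called 0 members, DESeq2, the newer quasi-dispersion estimate, a fit of the compared libraries alone and a fit of the higher-GC libraries alone, which holds only T-bet- replicate 3 and takes its spread from the other groups, each called 1 (Zeb2), no filter on low counts gave 4, and leaving out 1 library gave 0 to 4 (4 without T-bet- replicate 3). For splenic T-bet+ cDC2 over cDC1, 3 calls became 5 without the filter and 5 in the higher-GC libraries alone. In the MLN, DESeq2 gave 3 calls in each comparison with cDC1, no filter gave 2 (T-bet+) and 3 (T-bet-), the newer estimate gave 2 (T-bet-), and leaving out 1 library gave 1 to 2 in both. For T-bet+ cDC2 between tissues (1 call), DESeq2 gave 3, its size factors 2, no filter 6, at least 10 counts in every library 2, the newer estimate 2, the compared libraries alone 5, the library split as a term 0, and leaving out 1 library 0 to 3. For T-bet- cDC2 between tissues (1 call), no filter gave 3 and leaving out 1 library 0 to 1. For cDC1 between tissues (2 calls), DESeq2 gave 4, its size factors 1, no filter 4, the compared libraries alone 0, the library split as a term 1 (Relb), and leaving out 1 library 0 to 4. The test of T-bet+ cDC2 over cDC1 between tissues gave 1 call (Relb) without the filter, where the count over all genes went from 15 to 475. Such settings moved other counts over all genes too. For splenic T-bet+ over T-bet- cDC2 774 became 1521 without the filter and 1257 without T-bet- replicate 3. Between tissues, 855 in T-bet+ cDC2 became 2937 with the compared libraries alone and 63 with the library split as a term. In T-bet- cDC2 1000 became 2435 without the filter. In cDC1 1961 became 3513 by DESeq2 and 774 with the library split as a term. The fold change of Spi1 between tissues in cDC1 reversed, from 1.71 to -0.23 on the log2 scale, with the library split as a term. Of 8 windows called between the cDC2 subsets, an absolute log2 fold change over 1 left 5, DESeq2 3, the compared libraries alone 4, and leaving out 1 library 2 to 12 (2 without T-bet+ replicate 1 or either T-bet- replicate, 12 without T-bet+ replicate 2). For T-bet+ cDC2 over cDC1, 43 of 190 windows were called. With at least 10 counts in every library it was 25 of the 132 windows then tested. As whole peaks it was 27 of 67 peaks. For T-bet- cDC2 over cDC1, 41 of 190 windows and 26 of 67 whole peaks were called. Counts of peaks and of windows have different totals and are not losses or gains of calls. Without TMM scaling 36682 windows were called for T-bet+ cDC2 over cDC1, 13058 of them more open, against 38316 and 18359. The cause of these shifts was not tested. The fits by library split were chosen after seeing the data. Without splenic T-bet- replicate 3, T-bet- cDC2 keeps only lower-GC libraries while splenic T-bet+ cDC2 holds only higher-GC ones.

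Replicate numbers of the labels gave no uniform sign of pairing. Deviations of same-numbered libraries correlated between -0.74 and 0.43 in the spleen, -0.14 and 0.66 in the MLN and -0.04 and 0.02 in the ATAC data. In the spleen not every library correlated best with its own number. Whether the numbers in the library names pair the MLN libraries was not tested beyond the block given below. With the replicate block the splenic member calls were 0, 2 and 3 (T-bet+ over T-bet- cDC2, T-bet+ cDC2 and T-bet- cDC2 over cDC1), those in the MLN 0, 1 and 1, and window calls 7, 42 and 37; over all genes the block moved the first splenic count from 774 to 356 and the MLN counts from 952 to 539 and from 885 to 515. The 2 cDC2 groups of the MLN, where both correlations were -0.14, gave 0, 1 and 1 member calls and 4, 573 and 601 gene calls with the numbers crossed. The MLN T-bet- libraries, replicates 1 and 2 here, carry the numbers 2 and 3 in their library names. A block by those numbers, added after seeing the data, gave 0, 3 (Bcl6, Tcf4, Zeb2) and 4 (Nfil3, Tcf4, Zbtb46, Zeb2) member calls and 130, 2440 and 2477 gene calls. Over all alternatives, 218 of 288 counts stayed within 1.5 times the reported count. Among the 218 are counts of 0 that stayed at 0, for which a ratio says nothing. They come from the comparisons in which edgeR called 0 members. Of 929 fold changes of 52 results 798 kept their direction and call, 56 gained a call, 74 lost one and 1 reversed. Depth limits Zeb2 in cDC1, with 13 to 79 counts in the spleen, and windows with few counts.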
